A study of Homo sapiens with 9 samples.

Results

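C/D box snoRNA genes were taken as every probe of the bead array whose gene symbol starts with SNORD, which gave 178 of 47310 probes, for 176 of 20043 genes. Each gene was taken by its symbol alone, but the family was selected on the higher level of SNORD15B in these arrays, so the values of SNORD15B are a description. The arrays profiled total RNA of HEK293T cells, a human embryonic kidney line, transfected by a lipid reagent (Lipofectamine) with pRK5 carrying wild-type BPIFB4 (WT-BPIFB4), with pRK5 carrying its longevity-associated variant (called LAV-BPIFB4), or with a plasmid without insert (empty vector). Cells of all 3 groups were starved of serum for 18 hours, beginning 24 hours after transfection. Each group had 3 arrays, described as triplicates without a statement that the cultures were separate, so the p-values reflect how far these samples scatter, which may be technical. All 9 arrays lay on 1 chip with each group in adjacent places, so an effect of the group and one of chip position cannot be told apart.

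C/D box snoRNAs are short nucleolar RNAs named for the conserved boxes C and D, which bind SNU13, NOP56, NOP58 and the methyltransferase fibrillarin (FBL). Most pair with ribosomal RNA and direct 2′-O-methylation of the paired base, and a few, such as the U3 RNAs (SNORD3 genes), are needed to cut the ribosomal RNA precursor. In human cells most lie in introns of other genes, often genes for ribosomal proteins, and are released from the spliced intron, whereas the SNORD3 genes and SNORD13 are transcribed on their own. Mature C/D RNAs have no poly(A) tail and the labelling kit starts from poly(A) tails, so an intensity here may come from tailed or unprocessed forms, which the array cannot tell apart from mature RNA.

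Several genes that contain the SNORD genes described below have core promoters that can be read from RefSeq (GRCh38.p14), from 80 bases before to 20 bases from the annotated start. Those shown are of RPS3 (SNORD15B), RPL3 (SNORD83B and SNORD139), RPL13A (SNORD33 and SNORD35A) and NOP56 (SNORD57 and SNORD110). Capitals mark a terminal oligopyrimidine run, here a C at the start followed on the same strand by at least 4 more C or T, which is the known mark of ribosomal protein transcripts.
RPS3, chr11:75399438-75399537, plus strand: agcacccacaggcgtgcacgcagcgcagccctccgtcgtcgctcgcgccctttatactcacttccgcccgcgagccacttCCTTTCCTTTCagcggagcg
RPL3, chr22:39319604-39319703, minus strand: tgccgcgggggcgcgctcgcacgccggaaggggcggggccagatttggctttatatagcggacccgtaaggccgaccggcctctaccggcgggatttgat
RPL13A, chr19:49487528-49487627, plus strand: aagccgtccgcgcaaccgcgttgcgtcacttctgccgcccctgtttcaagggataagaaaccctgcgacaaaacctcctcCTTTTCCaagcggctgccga
NOP56, chr20:2652552-2652651, plus strand: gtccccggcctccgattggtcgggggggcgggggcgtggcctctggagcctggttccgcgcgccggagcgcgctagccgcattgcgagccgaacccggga
RPS3 had a run of 11 bases and RPL13A a run of 7 bases, and the other two had none that began at the annotated start. Such a run was held by 4.07% of the 35116 promoters that RefSeq gives, against 13 of the 32 (40.6%) for genes that contain a detected SNORD gene. The share for containers of SNORD genes called with LAV-BPIFB4 was 8 of 13 (61.5%), as a description of a choice made from these data.

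The number of probes detected over the negative controls of their array (detection p under 0.05) was 18940 to 20658 per array, and arrays of 1 group correlated at 0.976 to 0.987 across probes. Of 7 HEK293T markers, 5 were detected on all 9 arrays, and NES and PAX2 on none. Of 9 markers of leucocytes, endothelium, fibroblasts and liver, 5 were detected on none. COL1A2 and APOA1 were detected on 2 arrays, COL3A1 on 4, and ALB on all 9 by 1 of its 2 probes. The BPIFB4 probe was detected on no array, the transfected ones included, so it checks no label. In the deposited value table, whose 6 empty vector and WT-BPIFB4 columns follow the same arrays, the LAV-BPIFB4 columns matched none of the 9 arrays, and LAV-BPIFB4 below means the arrays that carry that label. In total RNA of a culture, fewer cells with an RNA and less of it per cell cannot be told apart.

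Many SNORD probes gave no signal over background in any sample. Of the 178 probes, 80 were detected on none of the 9 arrays, 24 on 1 or 2, 23 on 3 to 8 and 51 on all 9. The 74 probes detected on at least 3 arrays, each for a different gene, entered the tests. Just inside that limit lay SNORD38B, SNORD18A and SNORD7 with 3 arrays, and just outside it SNORD101, SNORD12B, SNORD76 and SNORD90 with 2.

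Detected SNORD probes numbered 68, 63 and 64 on the empty vector arrays, 68, 73 and 68 on the WT-BPIFB4 arrays and 74, 67 and 74 on the LAV-BPIFB4 arrays. Neither BPIFB4 group was clear of the empty vector by this count, since empty vector replicate 1 had 68. Over all probes of the array, 19500 to 20658 were detected with the empty vector, 19283 to 20029 with WT-BPIFB4 and 18940 to 20167 with LAV-BPIFB4, with means of 20015, 19608 and 19422. On all 3 arrays of a group, 52 probes were detected for the empty vector, 59 for WT-BPIFB4 and 64 for LAV-BPIFB4. SNORD12C and SNORD83A passed from 0 of 3 empty vector arrays to 3 of 3 LAV-BPIFB4 arrays, SNORD12C also to 3 of 3 WT-BPIFB4 arrays, and no probe went from 3 to 0. These counts by group have no matching count over all probes of the array here, so they are a description.

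**Figure D1:**
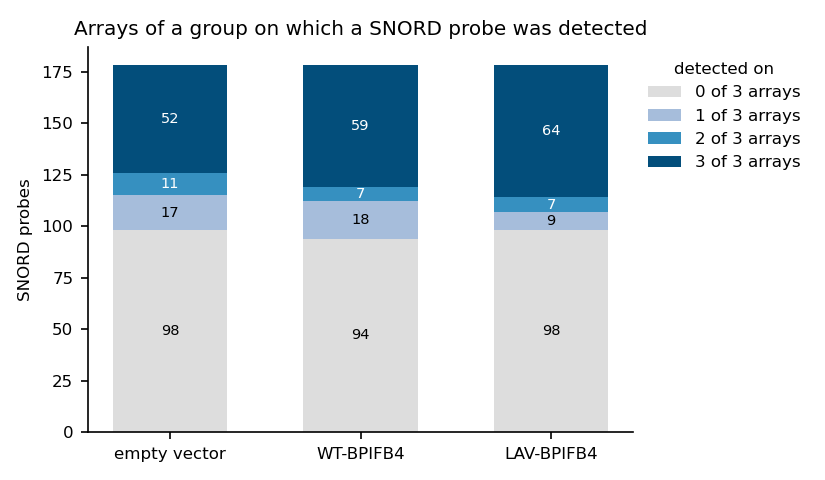
SNORD probes (vertical axis, of 178) by the number of arrays of each group on which they were detected at p under 0.05. The darkest segment, probes detected on all 3 arrays, holds 52, 59 and 64 probes, and the palest, probes detected on none, holds 98, 94 and 98.

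Probes of the imprinted clusters were mostly silent. Chromosome band 15q11-q13 carries the SNORD115 and SNORD116 arrays, which are known for neuronal expression, and 12 of its 13 probes were detected on no array. Band 14q32, with the SNORD113 and SNORD114 arrays, had 25 probes, of which 18 were detected on none and only SNORD114-2 entered the tests. SNORD114-2 was not called in any comparison, with a log2 difference of -0.25 for WT-BPIFB4 and -0.12 for LAV-BPIFB4 against the empty vector. By contrast, all 9 probes for RNAs of precursor processing were detected on all 9 arrays.

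The median log2 level of the 74 measured SNORD genes was higher on every array with BPIFB4 than on any empty vector array. It stood at 6.33, 6.14 and 6.32 with the empty vector, at 6.78, 6.58 and 6.67 with WT-BPIFB4 and at 7.20, 6.89 and 6.92 with LAV-BPIFB4. For these 74 genes, some of which passed the detection limit only through the BPIFB4 groups, the 3 groups formed 3 ranges without overlap. Over all 178 SNORD probes the ranges overlapped. The medians there were 4.843, 4.786 and 4.791 with the empty vector, 4.850, 4.836 and 4.907 with WT-BPIFB4 and 4.873, 4.897 and 4.917 with LAV-BPIFB4. These are normalized values on arrays given the same distribution, so the median of all kept probes was 7.22 on every array.

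With WT-BPIFB4, 12 of the 74 SNORD genes rose against the empty vector and none fell, while 0.607% of all kept probes rose, 0.464% fell and 1.07% were called in either direction. The called genes were SNORD15B, SNORD83B, SNORD33, SNORD21, SNORD35A, SNORD139, SNORD100, SNORD4A, SNORD3C, SNORD38A, SNORD57 and SNORD68, at 1.65-fold to 3.46-fold. The median log2 difference over the 74 was 0.41, against 0.0047 over all kept probes, and 63 of 74 lay above 0, against 50.6% of all kept probes. In 34 SNORD genes every WT-BPIFB4 array exceeded every empty vector array (8.31% of all kept probes did so), and in none did every one lie below (8.67%). At an unadjusted p under 0.05, 31 of 74 differed (15.6% of all).

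With LAV-BPIFB4, 28 of the 74 rose and none fell, against 3.64% of all kept probes that rose, 4.08% that fell and 7.72% in either direction. They were the 12 genes named above and SNORD13, SNORD46, SNORD11B, SNORD3A, SNORD3D, SNORD104, SNORD14C, SNORD12C, SNORD80, SNORD99, SNORD36C, SNORD55, SNORD14A, SNORD110, SNORD35B and SNORD96A. Their differences ran from 1.45-fold to 5.45-fold. The median log2 difference over the 74 was 0.60, against 0.0082 over all kept probes, and 71 of 74 lay above 0, against 50.8%. In 45 genes every LAV-BPIFB4 array exceeded every empty vector array (14.7% of all), and in none did every one lie below (15.9%). At an unadjusted p under 0.05, 45 of 74 differed (23.9% of all). Both comparisons share the same 3 empty vector arrays.

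These counts are taken over probes that passed the detection limit, which a probe can pass through the group in which it is high. Over all 178 SNORD probes the median log2 difference was 0.11 for WT-BPIFB4 and 0.14 for LAV-BPIFB4. The 104 probes outside the limit ranged from -0.38 to 0.50 and from -0.52 to 0.42. With every probe tested none of these 104 was called, and 9 (0.152% of all probes) and 25 (0.949%) of the SNORD probes rose. The empty vector largely set which SNORD probes were detected on all 9 arrays, since 52 were detected on its 3 arrays and 51 on all 9. The empty vector level also enters each of these differences. Among the 51, 12 rose with WT-BPIFB4 (0.767% of all such probes), with a median of 0.53. With LAV-BPIFB4, 26 of them rose (4.76%), with a median of 0.66. Of the 51, 47 had a WT-BPIFB4 difference above 0 (51.2% of all such probes) and all 51 a LAV-BPIFB4 difference above 0 (51%). Without SNORD15B, the counts over the other 73 measured genes were 11 and 27.

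**Figure D2:**
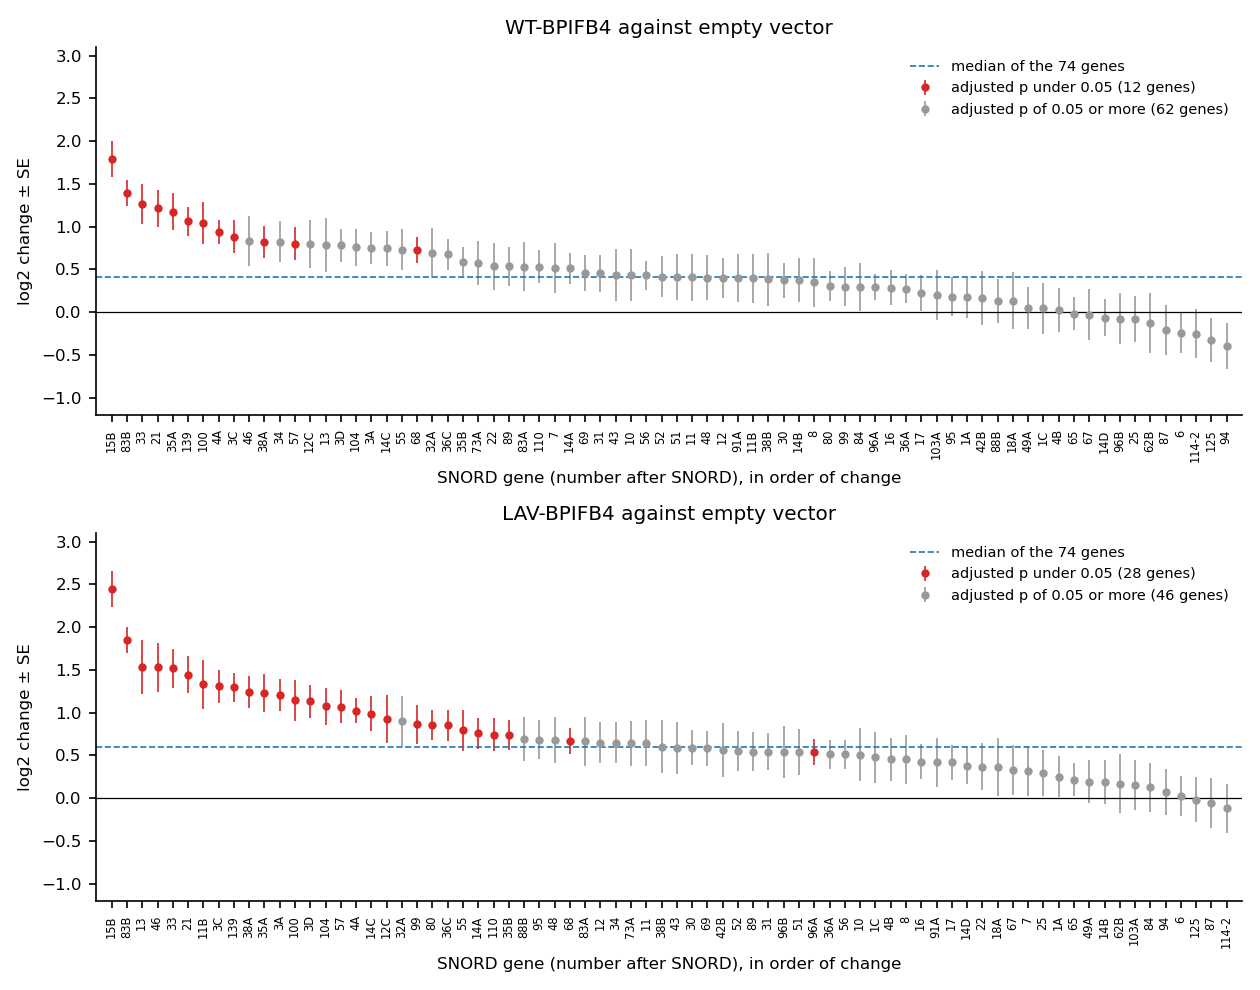
Log2 difference from the empty vector with its standard error (vertical axis) for each of the 74 measured SNORD genes (horizontal axis, in order of difference), for WT-BPIFB4 above and LAV-BPIFB4 below. Red points were called (12 and 28 genes), and the dashed line is the median of the 74 (0.41 and 0.60); no red point lies below 0.

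SNORD15B, which is contained in RPS3 and guides methylation of large-subunit rRNA, showed the widest difference. Its log2 level was 6.08, 6.74 and 6.36 on the empty vector arrays, 8.07, 8.23 and 8.27 on the WT-BPIFB4 arrays and 9.20, 8.38 and 8.94 on the LAV-BPIFB4 arrays. The 3 groups did not overlap. The fitted difference was 1.79 ± 0.21 (SE) for WT-BPIFB4, or 3.46-fold, and 2.45 ± 0.21 for LAV-BPIFB4, or 5.45-fold. The signals before any processing, 125 to 193 with the empty vector, 275 to 483 with WT-BPIFB4 and 439 to 745 with LAV-BPIFB4, kept both BPIFB4 groups above the empty vector. The probe for SNORD15A, contained in the same gene, was detected on none of the 9 arrays.

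SNORD83B, one of 4 SNORD genes contained in RPL3, had log2 levels of 8.09, 7.98 and 7.83 with the empty vector, 9.33, 9.27 and 9.47 with WT-BPIFB4, and 10.01, 9.57 and 9.87 with LAV-BPIFB4. Each group was clear of the next. It rose 2.62-fold with WT-BPIFB4 (adjusted p = 1.19e-05) and 3.60-fold with LAV-BPIFB4 (adjusted p = 8.27e-08). SNORD139, from the same gene, read 7.60, 7.71 and 7.60, then 9.0, 8.36 and 8.74, then 9.04, 8.75 and 9.01 in the same order of groups. Both BPIFB4 groups lay above the empty vector and overlapped each other, with a rise of 2.09-fold (adjusted p = 0.00215) and 2.46-fold (adjusted p = 0.000129). SNORD43, also in RPL3, was not called, with a LAV-BPIFB4 difference of 0.59. SNORD83A was not well above background on any empty vector array and was at least 1.35-fold higher with LAV-BPIFB4, which was not called (adjusted p = 0.159).

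RPL13A contains 4 measured SNORD genes, known as guides of rRNA methylation. SNORD33 had log2 levels of 6.02, 6.22 and 5.44 with the empty vector, 6.88, 7.25 and 7.34 with WT-BPIFB4 and 7.51, 7.23 and 7.49 with LAV-BPIFB4. SNORD35A had 6.03, 5.72 and 5.90, then 6.82, 7.28 and 7.08, then 7.39, 6.95 and 7.0. In both genes the 3 empty vector arrays were the lowest and the BPIFB4 groups overlapped. SNORD33 rose 2.40-fold and 2.86-fold (adjusted p = 0.00806 and 0.000655), and SNORD35A rose 2.26-fold and 2.34-fold (adjusted p = 0.00934 and 0.00263). The WT-BPIFB4 call of SNORD33 was lost without empty vector replicate 3 (adjusted p = 0.0507) or WT-BPIFB4 replicate 3 (0.0703), and that of SNORD35A without WT-BPIFB4 replicate 2 (0.0702) or 3 (0.0534). SNORD32A and SNORD34 were not called, with LAV-BPIFB4 differences of 0.90 and 0.65.

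Outside these clusters, SNORD21, a guide of large-subunit rRNA, had log2 levels of 6.27, 6.49 and 6.48 with the empty vector, 7.83, 7.54 and 7.51 with WT-BPIFB4 and 8.24, 7.41 and 7.92 with LAV-BPIFB4. It rose 2.32-fold (adjusted p = 0.00519) and 2.72-fold (adjusted p = 0.000503), and its BPIFB4 groups overlapped. SNORD4A, contained in RPL23A, was among the steadiest across arrays, at 8.22, 8.21 and 8.0, then 9.06, 9.19 and 9.0, then 9.25, 9.19 and 9.07. It rose 1.91-fold (adjusted p = 0.00125) and 2.03-fold (adjusted p = 0.00027). Its neighbour in RPL23A, SNORD4B, was not called, at 0.020 and 0.45.

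Without single arrays, and leaving SNORD15B aside because the family was selected on it, SNORD83B, SNORD21, SNORD139 and SNORD4A kept their WT-BPIFB4 call in every case, and the other 7 lost it in at least 1 case. The count of 12 became 6 without empty vector replicate 3, 7 without WT-BPIFB4 replicate 2, 6 without WT-BPIFB4 replicate 3 and 17 without WT-BPIFB4 replicate 1. The LAV-BPIFB4 count of 28 became 16 without LAV-BPIFB4 replicate 1, where SNORD100, SNORD11B, SNORD14A, SNORD14C, SNORD68 and SNORD99 were among those lost, with adjusted p from 0.0559 to 0.0849. In no case was a SNORD gene called lower. The share of all kept probes called without each array is not given here, so these counts are a description.

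**Figure D3:**
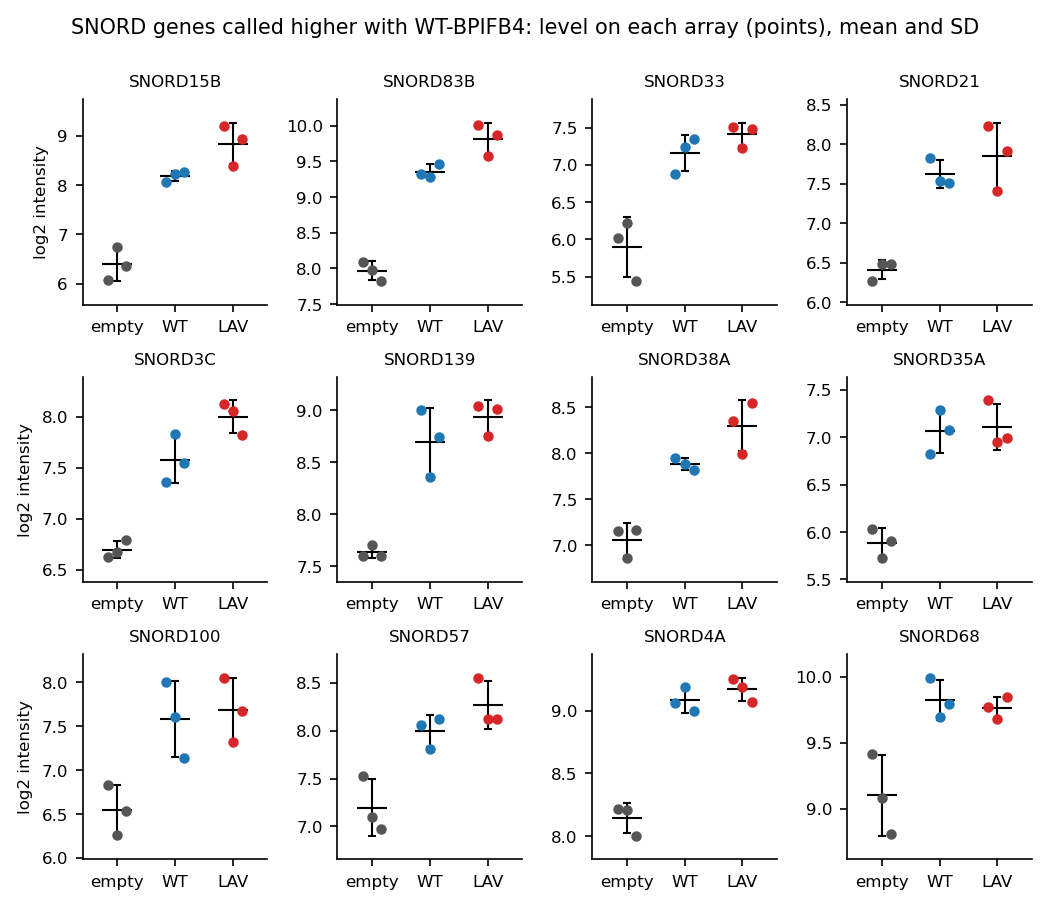
Normalized log2 intensity (vertical axis, own scale in each panel) of the 12 SNORD genes called with WT-BPIFB4, with a point for each array and the mean and SD of the 3 arrays of a group. In every panel the 3 empty vector points lie below all 6 BPIFB4 points.

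The RNAs of precursor processing were described as a list of their own: the U3 genes SNORD3A, SNORD3C and SNORD3D, SNORD13 (U13), the U14 genes SNORD14A to SNORD14D, and SNORD22 (U22), which are known to act in making small-subunit rRNA (U22 from work in Xenopus). With WT-BPIFB4, 1 of the 9 (SNORD3C) rose and none fell, with a median log2 difference of 0.74; the share that rose was 16.2% over the 74 SNORD genes and 0.607% over all kept probes. With LAV-BPIFB4, 6 of 9 rose (SNORD13, SNORD3C, SNORD3A, SNORD3D, SNORD14C and SNORD14A) and none fell, with a median of 0.99, beside 37.8% of the 74 and 3.64% of all kept probes that rose. The U3 genes are near-identical copies, as are some U14 copies, and their probes may not tell the copies apart.

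SNORD3A had log2 levels of 8.03, 7.79 and 8.07 with the empty vector, 8.23, 8.80 and 9.10 with WT-BPIFB4 and 9.17, 9.20 and 9.13 with LAV-BPIFB4. The groups followed one another without overlap, the WT-BPIFB4 arrays being the most spread. The LAV-BPIFB4 rise was 2.31-fold (adjusted p = 0.000651), and the WT-BPIFB4 difference of 1.68-fold was not called (adjusted p = 0.0508), although it was without WT-BPIFB4 replicate 1 (adjusted p = 0.00122). SNORD3C, at 6.63, 6.67 and 6.79, then 7.36, 7.83 and 7.55, then 8.13, 8.05 and 7.82, rose 1.84-fold (adjusted p = 0.0268) and 2.47-fold (adjusted p = 0.000381). Its WT-BPIFB4 call was lost without empty vector replicate 1 or 3 or WT-BPIFB4 replicate 2 or 3, at an adjusted p of 0.0550 to 0.129. SNORD3D rose 2.19-fold with LAV-BPIFB4 (adjusted p = 0.00163) and stood at 1.72-fold with WT-BPIFB4 (adjusted p = 0.0504), a call that also appeared without WT-BPIFB4 replicate 1 (adjusted p = 0.00687).

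SNORD13 had log2 levels of 7.39, 6.99 and 7.56 with the empty vector, 6.89, 8.69 and 8.73 with WT-BPIFB4, and 8.99, 8.74 and 8.81 with LAV-BPIFB4. WT-BPIFB4 replicate 1 lay at the bottom of all 9 arrays, while the other two WT-BPIFB4 arrays lay beside the LAV-BPIFB4 arrays. The LAV-BPIFB4 rise was 2.90-fold (adjusted p = 0.00676). The WT-BPIFB4 log2 difference was 0.79 ± 0.32 (adjusted p = 0.231), and without that array it was 1.40 (adjusted p = 0.000266). The same array was low for the related scaRNAs, whose median deviation from the probe mean was -0.68 there against 0.25 and 0.58 on the other WT-BPIFB4 arrays. It was also the lowest WT-BPIFB4 array for spliceosomal RNA probes (-0.10 against 0.19 and 0.49) and for H/ACA snoRNA probes (-0.085 against -0.025 and 0.11). For the SNORD genes as a whole it was not, at 0.065, 0.056 and 0.12.

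SNORD14C, contained in HSPA8, had log2 levels of 6.71, 6.83 and 7.01, then 7.75, 7.63 and 7.41, then 8.16, 7.48 and 7.87. It rose 1.98-fold with LAV-BPIFB4 (adjusted p = 0.00651), and its WT-BPIFB4 value of 1.68-fold was not called (adjusted p = 0.0785). SNORD14D, from the same gene, was not called, at -0.069 and 0.38. SNORD14A, contained in RPS13, rose 1.69-fold with LAV-BPIFB4 (adjusted p = 0.0136), a call lost without empty vector replicate 3 or LAV-BPIFB4 replicate 1 or 3, at an adjusted p of 0.0609 to 0.0755. SNORD14B in RPS13 (0.37 and 0.19) and SNORD22 in the non-coding host SNHG1 (0.54 and 0.37) were not called in either comparison.

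**Figure D4:**
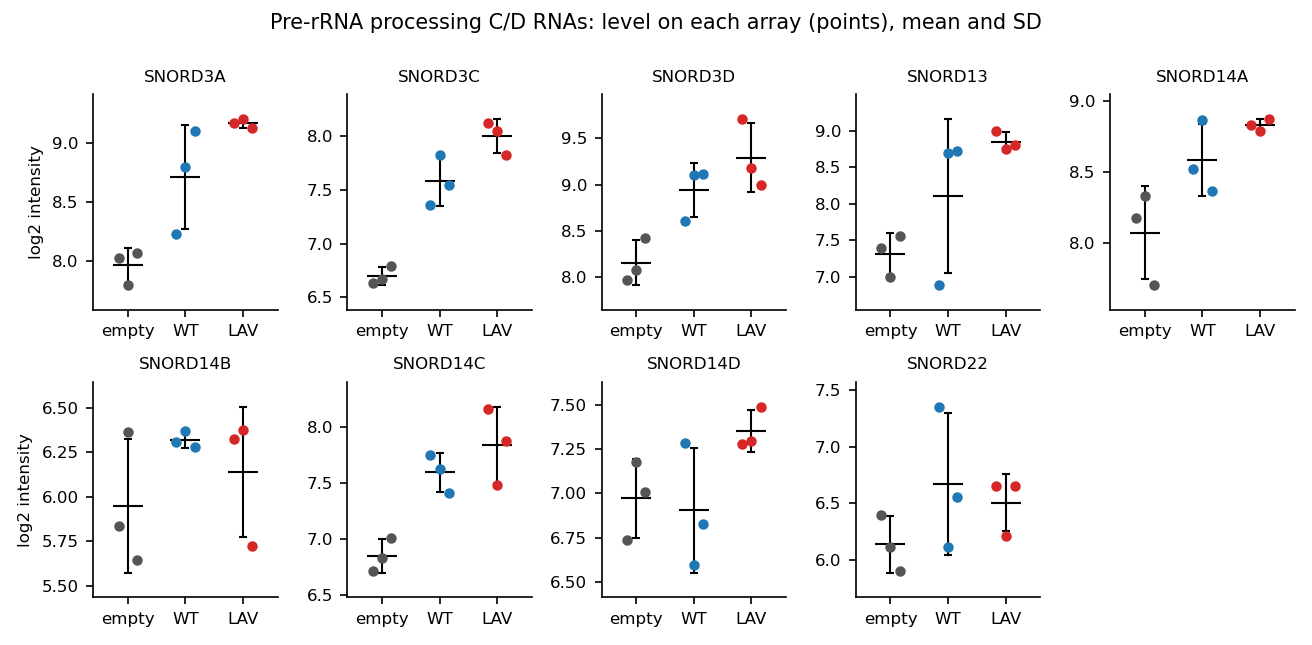
Normalized log2 intensity (vertical axis, own scale in each panel) of the 9 pre-rRNA processing RNAs, with a point for each array and the mean and SD of the 3 arrays of a group. The LAV-BPIFB4 points of SNORD3A, SNORD3C, SNORD3D, SNORD13, SNORD14A and SNORD14C lie above the empty vector points, and WT-BPIFB4 replicate 1 is the lowest point for SNORD13.

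By the kind of gene that contains them, called SNORD genes were most numerous in ribosomal protein genes. With WT-BPIFB4, 9 of the 26 measured there rose, with a median log2 difference of 0.69 over the 26, against 0 of 17 in long non-coding RNA genes (median 0.37) 1 of 23 in other single genes (median 0.29) and 1 of 4 within several genes (median 0.36). With LAV-BPIFB4 the counts were 14 of 26 (median 0.75), 4 of 17 (0.54), 5 of 23 (0.54) and 1 of 4 (0.32). Over all kept probes 0.607% and 3.64% rose. All 4 genes with no containing gene, SNORD3A, SNORD3C, SNORD3D and SNORD13, rose with LAV-BPIFB4 (median 1.26), and 1 of them with WT-BPIFB4 (median 0.78). These classes were not tested against each other. Across the 74 genes the Spearman correlation of the difference with the empty vector level was 0.35 for both forms, and that with the annotated length of 55 to 237 bases was 0.11 for WT-BPIFB4 and 0.079 for LAV-BPIFB4. With the mean level over all 9 arrays, which holds the difference itself, it was 0.54 and 0.55. The empty vector level is also a term of the difference, with a negative sign, so neither level is independent of the difference. These correlations are descriptions over 74 genes that share the same 9 arrays. The offset of 16 added to the signals understates log2 differences of low signals.

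Among the other called genes, SNORD46 read 6.57, 5.52 and 6.74, then 6.97, 6.98 and 7.38, then 8.38, 7.33 and 7.70, and rose 2.88-fold with LAV-BPIFB4 (adjusted p = 0.0038). SNORD57, in an intron of NOP56, the gene of a C/D core protein, rose 1.74-fold (adjusted p = 0.0483) and 2.10-fold (adjusted p = 0.00273); its WT-BPIFB4 call was lost when any of 7 arrays was left out, at an adjusted p of up to 0.266. GAS5, which contains SNORD80 and 7 further probes, gave 1 measured gene, SNORD80, at 7.48, 7.39 and 7.63, then 7.86, 7.86 and 7.69, then 8.51, 8.07 and 8.50. SNORD80 rose 1.81-fold with LAV-BPIFB4 (adjusted p = 0.00635), a call lost without LAV-BPIFB4 replicate 3 (adjusted p = 0.0515). Of 7 probes for genes in SNHG1, 4 were measured and none was called.

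For 51 measured SNORD genes the containing gene, 31 in all, was measured by a probe of its own. The host probes of GAS5 (SNORD80), PTCD3 (SNORD94) and MEG8 (SNORD114-2) lay near background, detected on 5, 4 and 8 of the 9 arrays. Of these 31 transcripts, 2 (6.45%) rose with WT-BPIFB4 (ZFAS1 and SNHG32), against 0.607% of all kept probes, and 3 (9.68%) rose with LAV-BPIFB4 (ZFAS1, RPL13 and SNHG32), against 3.64%. None of the 31 fell. The median log2 difference was 0.029 and -0.0093 over the 31 transcripts and -0.013 and 0.073 over the 51 pairs, in which a host counts once for each of its SNORD genes. The SNORD difference was above that of its host in 40 of 51 pairs with WT-BPIFB4 and in 45 of 51 with LAV-BPIFB4. All 9 and all 17 pairs with a called SNORD gene were among them. Those genes were picked for their rise, which largely sets this order, and include SNORD15B, on which the family was selected. RPS3 had levels of 13.80, 13.79 and 13.81 with the empty vector, 13.89, 14.10 and 14.01 with WT-BPIFB4 and 14.03, 14.02 and 14.10 with LAV-BPIFB4, a log2 difference of 0.20 and 0.25 that was not called (adjusted p = 0.278 and 0.0869). RPL3 differed by -0.017 and 0.078 and RPL13A by -0.013 and -0.12, neither called, beside the rises of SNORD83B and SNORD33. Whether each SNORD gene and its container lie on the same strand was not checked, since the annotation used gives no strand.

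**Figure D5:**
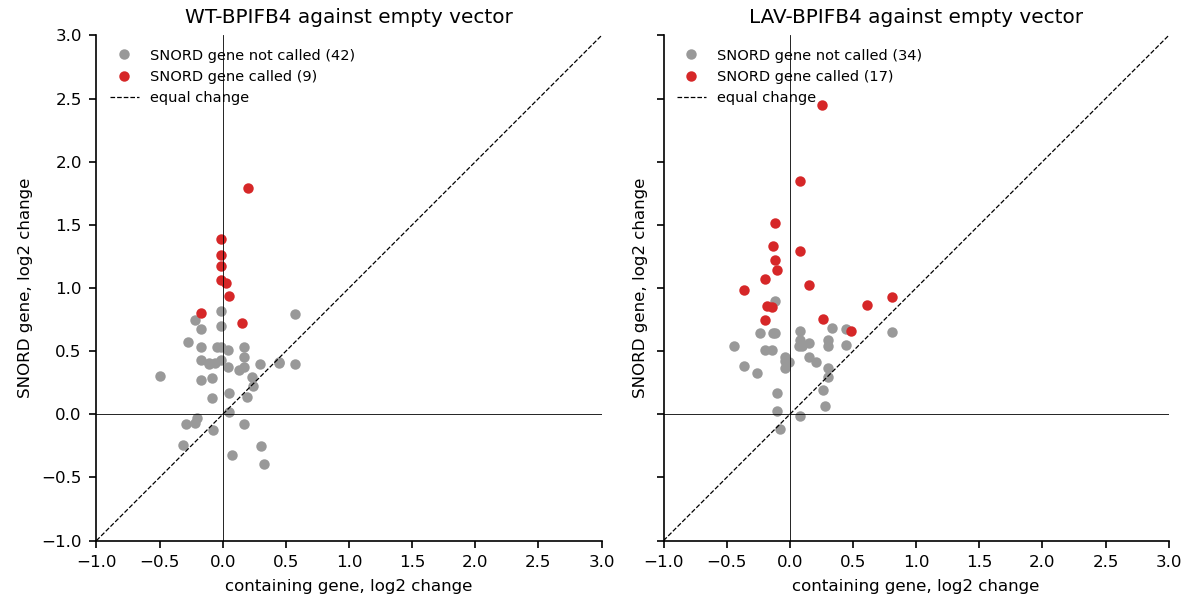
Log2 difference from the empty vector of each SNORD gene (vertical axis) against that of the gene that contains it (horizontal axis) for 51 pairs, with WT-BPIFB4 on the left and LAV-BPIFB4 on the right. Red points, the 9 and 17 called SNORD genes, all lie above the dashed line of equal difference, and were picked for their rise.

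SNORD12C, in the non-coding host ZFAS1, was the called gene whose host rose most. It was not well above background on any empty vector array and was detected on all 3 arrays of each BPIFB4 group, at log2 levels of 5.87, 6.09 and 5.39 with WT-BPIFB4 and 6.15, 5.40 and 6.18 with LAV-BPIFB4. Measured against the lowest signal well above background, it was at least 1.66-fold higher with LAV-BPIFB4 (adjusted p = 0.0491) and at least 1.52-fold with WT-BPIFB4 (adjusted p = 0.172). The probe passed the detection limit only through the BPIFB4 groups, and with every probe tested its LAV-BPIFB4 call was lost (adjusted p = 0.131). ZFAS1 itself rose by 0.57 on the log2 scale with WT-BPIFB4 (adjusted p = 0.0153) and by 0.81 with LAV-BPIFB4 (adjusted p = 0.00027). SNORD12, also in ZFAS1, was not called (0.40 and 0.65), and the third, SNORD12B, was detected on 2 arrays. SNORD12C was singled out after its values were seen.

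Few members had a lower level with BPIFB4, and none passed the test. The lowest WT-BPIFB4 differences by p were those of SNORD94, a guide of U6 snRNA methylation, at -0.40 ± 0.27, SNORD125 at -0.33, SNORD6 at -0.24, SNORD114-2 at -0.25 and SNORD87 at -0.21. Their adjusted p ran from 0.507 to 0.782, and in each of them the groups overlapped. With LAV-BPIFB4 only SNORD114-2, SNORD87 and SNORD125 lay below 0, at -0.12, -0.056 and -0.017.

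The direct comparison of LAV-BPIFB4 with WT-BPIFB4 called no SNORD gene and no probe at all (0 of 20914, or 0%). The median log2 difference over the 74 SNORD genes was 0.23, against -0.0031 over all kept probes, and 67 of 74 lay above 0, against 49.5%. Among the 51 detected on all 9 arrays, 47 lay above 0, against 49% of all such probes. At an unadjusted p under 0.05, 12 of 74 differed, against 4.67% of all kept probes, and in 11 of 74 the groups did not overlap, with LAV-BPIFB4 the higher (5.24% of all); the reverse was seen in none (4.85%). The smallest p belonged to SNORD11B, at 5.28, 5.37 and 6.06 with WT-BPIFB4 and 6.81, 6.05 and 6.65 with LAV-BPIFB4. Its levels of 5.28 and 5.37 lay near the lowest levels detected on those arrays, 5.24 and 5.18. The groups overlapped by 1 array of each, with a log2 difference of 0.93 (adjusted p = 0.972). SNORD80 (0.56), SNORD15B (0.65), SNORD83B (0.46) and SNORD99 (0.57) followed with the same adjusted p. The 5 differences below 0 with the smallest p were -0.18 for SNORD34, -0.18 for SNORD14B, -0.20 for SNORD7, -0.17 for SNORD22 and -0.17 for SNORD84.

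Among the proteins that bind and mature C/D RNAs, 1 of 4 core proteins, 0 of 10 assembly factors and 1 of 6 genes for trimming and debranching were called with LAV-BPIFB4. That share is near the 7.72% of all kept probes called in either direction. None was called with WT-BPIFB4 (1.07% of all). Of the 4 core proteins, SNU13, which binds boxes C and D directly, rose with LAV-BPIFB4 by 0.39 on the log2 scale (adjusted p = 0.0441) and stood at 0.43 with WT-BPIFB4 (adjusted p = 0.0785). Its levels were 10.79, 10.97 and 10.92, then 11.19, 11.26 and 11.50, then 11.36, 11.17 and 11.32, with both BPIFB4 groups above the empty vector. FBL, NOP56 and NOP58 were not called in either comparison, at 0.22, -0.20 and -0.13 with LAV-BPIFB4. In the trimming list XRN2, a nuclear exonuclease whose yeast counterpart trims snoRNA ends, had levels of 10.28, 10.25 and 10.20 with the empty vector, 10.48, 9.74 and 9.97 with WT-BPIFB4 and 9.74, 9.66 and 9.68 with LAV-BPIFB4, and fell by 0.55 with LAV-BPIFB4 (adjusted p = 0.0301).

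Probes of other classes of small nuclear RNA were called as well. With LAV-BPIFB4, where 3.64% of all kept probes rose and 4.08% fell, 28 of 77 measured SNORA probes (the H/ACA class, which guides pseudouridylation) rose and 1 fell, with a median log2 difference of 0.58. Of 17 SCARNA probes (Cajal body RNAs) 11 rose, with a median of 1.33, and of 14 RNU and RNVU probes (spliceosomal RNAs) 12 rose, with a median of 1.65. With WT-BPIFB4, where 0.607% of all kept probes rose and 0.464% fell, 5 SNORA probes rose and 1 fell, 1 SCARNA probe rose and 6 RNU and RNVU probes rose. Their medians were 0.30, 0.74 and 1.01, beside 0.41 for the SNORD genes. The 4 classes were not tested against each other.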

How the data were processed

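Each sample was hybridised to 1 Illumina bead array. Per the file headers, the deposited table of non-normalized data holds 2 columns per array, the signal intensity of each probe and its detection p-value. Per the submitters' processing notes BeadStudio was used, with no version given. A deposited table of values holds a second intensity per sample, whose normalization is not given in the sources used here. It served as an alternative, although its LAV-BPIFB4 columns matched none of the arrays.

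The neqc function (limma 3.58.1, R 4.3.3) corrected the background from the detection p-values, added an offset of 16, normalized by quantiles and took log2. Of 47310 probes, 30105 carried 1 gene symbol, 8 several and 17197 none; all 178 SNORD probes carried 1. Probes with a detection p under 0.05 on at least 3 arrays (20914) were kept. A model with 3 group means was fitted to all 9 arrays with lmFit and eBayes (intensity trend), two-sided. A probe was called at a Benjamini-Hochberg adjusted p under 0.05 over all kept probes; groups did not overlap where every array of one exceeded every array of the other. Levels are log2 intensities and errors are the standard error of the fit. The precision is limited by the number of arrays. The fit and the calls for WT-BPIFB4 against the empty vector were tested on simulated data. Those data had independent noise around the normalized levels of the kept probes, so the steps before the fit were not tested.

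The containing gene of a SNORD gene was the only RefSeq gene (GRCh38.p14) whose span holds it; its probe with the highest mean was used. Where a probe was not detected on any array of a group, a bound was computed against the lowest signal detected on each array. Named were called SNORD genes (up to 15 per direction and comparison), the 5 of smallest p where fewer than 5 were called, the pre-rRNA processing RNAs and host genes. SNORD12C, SNORD36C, SNORD55, SNORD110, SNORD35B and SNORD96A were named beyond this rule, to complete the list of calls, as were SNORD genes of a shared host. Members, lists and tests were chosen with earlier results of these data known. The 19 alternatives cover the background correction, offset, scaling, source of values, probe filter, variance model, array weights, arrays in the fit, the replicate number and each array left out. Some results are not reported here.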

Additional observations from a re-analysis of the deposited data

How the results depend on the processing

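Across the 19 alternatives, no SNORD gene was called lower in any comparison, none was called between LAV-BPIFB4 and WT-BPIFB4, and every median over the SNORD genes stayed above 0. The count of 12 genes called with WT-BPIFB4 was 2 under median scaling, 4 without the intensity trend, 7 with only the 2 groups compared and 19 with array weights. Left-out arrays gave 6 to 17. The count of 28 with LAV-BPIFB4 was 17 under median scaling and 14 without the trend, and left-out arrays gave 16 to 30. The replicate block, the replicate number as a term, gave 20 and 31. Replicate numbers are shared by the groups but mark nothing the labels name, so the main fit did not take them as pairs. Arrays of different groups were compared by their deviations from the group mean, not by their intensities. Of 9 pairs of arrays with the same number, 4 correlated above 0.1 in these deviations (0.0011 to 0.216). Of 18 pairs with different numbers 0 did so (-0.15 to 0.066). The main fit may thus leave out a part that arrays of the same number share. Under median scaling, 0.182% of all kept probes were called higher of 0.249% called with WT-BPIFB4, and 0.98% of 1.16% with LAV-BPIFB4. It also moved the median of all kept probes by 0.13 between LAV-BPIFB4 and WT-BPIFB4, beside 0.35 for the SNORD genes. For the other alternatives counted here the share of all kept probes called is not given, so their counts are a description. SNORD15B aside, on which the family was selected, the WT-BPIFB4 call held under all 19 for SNORD83B. The LAV-BPIFB4 call held wherever the probe was tested for SNORD139, SNORD21, SNORD33, SNORD35A, SNORD38A, SNORD3A, SNORD3C, SNORD3D, SNORD4A, SNORD57 and SNORD83B. In the value table, 27 SNORD genes were called with LAV-BPIFB4, 23 of them among the 28, and 28 of the 28 had a difference above 0. Its LAV-BPIFB4 columns matched none of the arrays, so for LAV-BPIFB4 this alternative is not a change of processing alone.

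The median log2 difference of the measured SNORD genes for WT-BPIFB4 was 0.19 without background correction, 0.27 with an offset of 50, 0.11 with no detection filter and 0.53 with the stricter filter. For LAV-BPIFB4 it was 0.29, 0.45, 0.14 and 0.74 in the same order and 0.44 in the value table; between the forms it was 0.35 under median scaling and 0.072 with no filter. Left-out arrays gave 0.40 to 0.49, 0.55 to 0.70 and 0.15 to 0.33. Over all 178 probes the median was 0.062 without background correction and 0.051 with an offset of 50 for WT-BPIFB4, 0.066, 0.062 and, under median scaling, 0.10 for LAV-BPIFB4, and 0.039 and 0.038 between the forms, with 0.098 to 0.14, 0.12 to 0.17 and 0.038 to 0.086 over left-out arrays. The cause of these shifts was not tested, except that an offset or an uncorrected background shrinks log2 differences by construction.

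Among the 33 genes followed one by one under the alternatives, which leave out SNORD12C, SNORD36C, SNORD55, SNORD110, SNORD35B and SNORD96A, signs reversed only in comparisons in which the gene was not called. Against the empty vector with LAV-BPIFB4, SNORD6 was -0.13 in the value table and -0.11 with array weights, SNORD87 was 0.090 with array weights and SNORD94 was -0.0059 in the value table. Between LAV-BPIFB4 and WT-BPIFB4, the value table gave 0.093 for SNORD14B, 0.057 for SNORD34, 0.021 for SNORD68 and 0.042 for SNORD84. Array weights gave 0.13 for SNORD22, -0.089 for SNORD35A and 0.021 for SNORD68, and median scaling gave 0.10 for SNORD68. Over left-out arrays, the LAV-BPIFB4 difference from the empty vector ran from -0.39 to 0.042 for SNORD114-2, -0.062 to 0.044 for SNORD125, -0.098 to 0.19 for SNORD6, -0.30 to 0.083 for SNORD87 and -0.090 to 0.17 for SNORD94, and that of WT-BPIFB4 from -0.26 to 0.084 for SNORD14D. Between the forms it ran from -0.12 to 0.31 for SNORD100, -0.050 to 0.27 for SNORD114-2, -0.30 to 0.030 for SNORD14B, -0.45 to 0.17 for SNORD22, -0.090 to 0.16 for SNORD35A, -0.13 to 0.022 for SNORD68 and -0.092 to 0.36 for SNORD87.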
